A study of Mus musculus with 36 samples.

Results

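The 28 genes described here encode enzymes of cholesterol synthesis and proteins that sense, take up and move sterols. They were listed by name for what they are known to do, under a rule that used no measured value but was set with earlier results of these data known, and each was matched by symbol to 1 gene of a count table that held 49671 mouse genes. All 28 passed the filter on low counts, as did 17702 genes of the table. RNA was sequenced from mouse embryonic stem cells (mESCs) labelled 129m wt, a wild-type line, in 36 libraries that fell into 11 groups. The cells grew on soft or stiff StemBond hydrogels, polyacrylamide gels to which matrix protein is covalently tethered, or on tissue culture plastic. All media held serum, with or without the cytokine LIF, which holds these cells in the self-renewing state, and with or without PD03, an inhibitor of MEK, the kinase that activates ERK. After 24 h there were 3 libraries from soft and 3 from stiff hydrogels, all in serum + LIF. After 48 h there were 3 libraries from plastic in serum + LIF, and 3 libraries for each hydrogel in each of the 4 media (serum with neither, either or both of LIF and PD03), except that soft hydrogels with PD03 and no LIF had 6. Plastic thus had no 24 h, no LIF-free and no PD03 group, and all cells were of the same genotype. The labels do not say whether the libraries of a group came from separate cultures, so the p-values measure the spread between these libraries, which may be technical.

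Cholesterol is built from acetyl-CoA through mevalonate, the isoprenoid units and squalene to lanosterol, the earliest sterol, which a further series of enzymes turns into cholesterol. Most genes of this route are switched on by SREBP2, a membrane-bound factor that SCAP carries to the Golgi for cleavage when sterol is low and that INSIG proteins hold back when sterol is high. Cells that hold much sterol use the LXR factors instead, whose known targets include the exporter Abca1 and the ubiquitin ligase Mylip, which removes lipoprotein receptors from the surface, so synthesis and uptake on the one hand and export on the other tend to be set in opposite directions.

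Promoter windows were read from RefSeq on build GRCm38.p6, each from 250 bases before to 50 bases after an annotated start. Of the 28 genes, 23 had a window, with 31 windows in all, and Fdft1, Npc1, Sqle, Stard4 and Fdps had none in the table used. The sterol regulatory element, searched as TCACNCCAC on both strands, was found in 1 of the 31 windows, that of Hmgcs1 at 137 bases before the start, and in 1.24% of the 32851 windows of all genes. The CCAAT box, to which NF-Y binds and which often lies beside SREBP sites, was found in 21 of the 31 windows, against 37.4% of all windows. The GC box (GGGCGG) was found in 25 of the 31 windows, against 35.7%, and the E-box (CACGTG) in 7, against 7.15%. Some genes had several windows, and 20, 21 and 6 of the 23 genes had at least 1 with the motif, in the same order. The shares are over windows of all genes, whether or not expressed here. These matches describe letters in the windows and not factor binding. Other forms of the sterol regulatory element were not searched, so a window without a match may still hold one. The 6 windows below belong to 4 genes of synthesis that were lower and 2 genes of export and receptor turnover that were higher with PD03, as described further on. The windows lie at chr13:119690101-119690400 on the plus strand for Hmgcs1, at chr13:8885356-8885655 on the plus strand for Idi1, at chr10:76531355-76531654 on the plus strand for Lss, at chr5:4104648-4104947 on the minus strand for Cyp51, at chr13:45389492-45389791 on the plus strand for Mylip and at chr4:53159846-53160145 on the minus strand for Abca1. They are written 5′ to 3′ along the gene, with the sterol regulatory element and the CCAAT box, or its complement ATTGG, in capitals.
Hmgcs1: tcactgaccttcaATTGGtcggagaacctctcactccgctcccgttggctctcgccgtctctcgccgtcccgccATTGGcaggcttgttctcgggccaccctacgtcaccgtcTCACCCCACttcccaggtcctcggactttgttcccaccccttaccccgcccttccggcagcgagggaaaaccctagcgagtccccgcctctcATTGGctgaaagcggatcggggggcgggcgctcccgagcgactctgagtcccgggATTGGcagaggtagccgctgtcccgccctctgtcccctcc
Idi1: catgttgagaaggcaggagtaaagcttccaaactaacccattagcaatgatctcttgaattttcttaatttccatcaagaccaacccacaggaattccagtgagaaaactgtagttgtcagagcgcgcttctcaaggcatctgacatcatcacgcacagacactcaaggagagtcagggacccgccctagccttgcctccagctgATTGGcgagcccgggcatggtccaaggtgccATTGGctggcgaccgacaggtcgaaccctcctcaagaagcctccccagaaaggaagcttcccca
Lss: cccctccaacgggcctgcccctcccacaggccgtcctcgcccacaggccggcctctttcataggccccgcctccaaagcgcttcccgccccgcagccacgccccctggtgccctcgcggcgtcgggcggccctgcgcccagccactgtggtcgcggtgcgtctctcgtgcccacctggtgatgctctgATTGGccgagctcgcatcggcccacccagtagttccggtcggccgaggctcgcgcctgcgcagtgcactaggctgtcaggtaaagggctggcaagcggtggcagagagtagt
Cyp51: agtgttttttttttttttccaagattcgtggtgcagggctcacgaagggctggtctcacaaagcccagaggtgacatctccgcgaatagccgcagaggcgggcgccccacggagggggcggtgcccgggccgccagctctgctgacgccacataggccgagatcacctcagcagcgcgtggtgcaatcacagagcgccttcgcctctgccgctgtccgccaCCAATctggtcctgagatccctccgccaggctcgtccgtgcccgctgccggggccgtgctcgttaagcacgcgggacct
Mylip: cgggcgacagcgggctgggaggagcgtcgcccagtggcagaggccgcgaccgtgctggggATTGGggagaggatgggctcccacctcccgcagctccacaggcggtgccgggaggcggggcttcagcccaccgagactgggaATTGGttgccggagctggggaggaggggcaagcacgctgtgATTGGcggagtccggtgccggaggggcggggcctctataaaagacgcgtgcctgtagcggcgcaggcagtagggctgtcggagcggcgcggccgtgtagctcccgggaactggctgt
Abca1: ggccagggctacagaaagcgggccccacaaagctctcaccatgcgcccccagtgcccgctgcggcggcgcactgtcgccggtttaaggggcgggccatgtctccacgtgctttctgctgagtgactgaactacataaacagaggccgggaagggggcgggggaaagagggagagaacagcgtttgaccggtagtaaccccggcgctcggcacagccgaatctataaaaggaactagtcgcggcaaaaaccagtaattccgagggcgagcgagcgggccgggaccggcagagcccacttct

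Library totals lay between 10405696 and 26635239 counts. Levels are given as CPM, the counts of a gene divided by its library's total, after TMM scaling of that total, and set to a common depth. Markers of the labelled cell type were high in every library, with a summed level of 5 pluripotency genes of 1660 to 3020 CPM, against 42 to 136 CPM for 6 primitive endoderm genes, 11.6 to 93.7 CPM for 4 trophoblast genes and 24.4 to 96.3 CPM for 5 fibroblast genes. No marker was at 0 in all libraries of a group. In bulk RNA, fewer cells that express a gene and less RNA of it per cell cannot be told apart. The sample descriptions carried identifiers whose first field split the libraries into 3 sets of 10, 13 and 13, and what these sets are was not stated. All 24 h and plastic libraries lay in set 1 together with 1 of the 3 stiff libraries in serum + LIF at 48 h. The other stiff libraries at 48 h and 2 of the 6 soft libraries in serum + PD03 lay in set 2, and the remaining soft libraries at 48 h in set 3.

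Per kilobase of exon, Hmgcs1, which makes the precursor of mevalonate, and Srebf2, which encodes SREBP2, had the highest levels of the 28 genes, with group means of 27.3 to 43.6 and 24.5 to 28.2 CPM per kb. Hmgcs1 had the higher mean in each of the 11 groups, from 27.3 against 24.6 CPM per kb on soft hydrogels at 24 h to 43.6 against 28.1 CPM per kb on soft hydrogels in serum. The kinase Pmvk, at 13.9 to 18 CPM per kb, followed in some groups, while in others Mvd, Acat2 or Fdft1 had a slightly higher mean. At the other end stood Npc1l1, the sterol importer of the gut, with 0.0659 to 0.135 CPM per kb, which rested on 3 to 14 counts per library and carried no call in any comparison. Tm7sf2, a sterol reductase, was next lowest at 0.746 to 1.22 CPM per kb. Overlap with a neighbour could have raised or lowered some levels, and the strand setting of the counting was not stated. Of the exon bases of Fdft1, 18.3% lay opposite exons of Ctsb, and 13.2% of those of Scap lay opposite a non-coding gene. On the same strand, 26.7% of those of Fdps were shared with Gm43738, which had 0 counts, and 12.1% of those of Tm7sf2 with Vps51. Acat2 has a near-identical copy, Acat3, so its counts are uncertain.

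Comparisons were made with edgeR's quasi-likelihood test, in 1 model with a coefficient for each group over all libraries. A gene was called where its adjusted p, by the Benjamini-Hochberg method over the 17702 genes, was under 0.05. Each fold change is a log2 value followed by its standard error (SE).

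**Figure D1:**
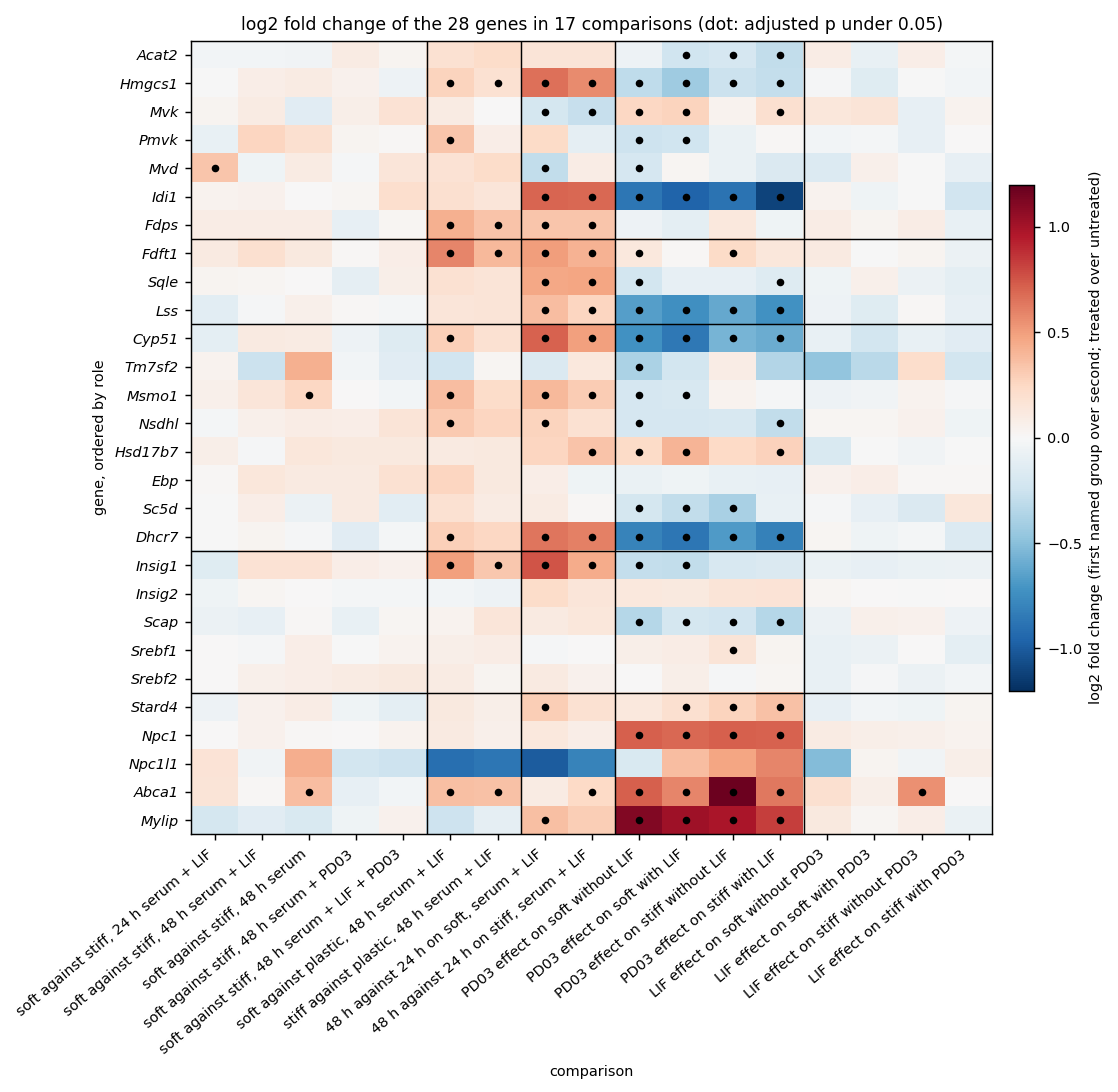
The log2 fold change of each of the 28 genes (vertical axis, ordered by role) in 17 comparisons (horizontal axis), where red is higher in the group named first or with the treatment and blue is lower, and a dot marks a call. Apart from Npc1l1, whose strong colours rest on 3 to 14 counts per library, the 4 PD03 columns hold the deepest blue (Idi1, Lss, Cyp51, Dhcr7). They also hold the deepest red (Mylip, Abca1), while the columns for soft against stiff hold 3 dots in all.

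Soft hydrogels were compared with stiff ones in the same medium and at the same time. Few of the 28 genes were called. After 24 h in serum + LIF, 1 of the 28 genes (3.57%) was called, against 3.55% of all genes tested. The called gene was Mvd, which decarboxylates mevalonate diphosphate, with 26.4, 28.4 and 30.9 CPM on soft hydrogels and 24.3, 21.2 and 22.9 CPM on stiff. All 3 soft libraries lay above all 3 stiff libraries, and the log2 fold change was 0.33 ± 0.085 (SE, adjusted p = 0.0133). The call was lost without stiff library 2 (0.285, adjusted p = 0.116) and without soft library 3 (0.274, adjusted p = 0.13).

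After 48 h in serum, 2 genes were called, a share of 7.14% against 4.85% of all genes, and both were higher on soft hydrogels. Abca1, which exports cholesterol to lipoproteins, stood at 41.8, 43.3 and 41.1 CPM on soft and at 31, 29.3 and 37.9 CPM on stiff hydrogels, a log2 fold change of 0.37 ± 0.077 (adjusted p = 0.00114). Msmo1, a methyl sterol oxidase, stood at 36.5, 37.6 and 35.3 CPM on soft and at 31.6, 31.8 and 28.7 CPM on stiff, a log2 fold change of 0.25 ± 0.073 (adjusted p = 0.0383). For both genes the libraries of the 2 hydrogels did not overlap. The call of Abca1 was kept in each fit that left out a library, and that of Msmo1 was lost in 5 of 6 fits that left out a library and in the fits without the filter or with only the 2 groups compared. At 48 h the hydrogel and the library set coincided in nearly all libraries and cannot be told apart. With a term for the set, tried over the 45 possible assignments of libraries to sets, Abca1 was called in 21 and Msmo1 in 0.

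In the other 3 media no member was called. Of all genes, 0.78% were called in serum + LIF at 48 h, 5.55% with PD03 alone and 7.61% with both LIF and PD03. At an unadjusted p under 0.05 the members numbered 2, 1 and 4 of the 28, beside 1929, 3157 and 3407 of the 17702 genes tested. DESeq2 also called 0 in each. Without soft library 3 in serum + LIF, 1 member was called in that medium. The median log2 fold change of the 28 genes between soft and stiff lay between 0.00417 and 0.0885 in the 5 comparisons, beside medians of -0.00278 to 0.0103 over all genes tested. Pluripotency markers were called higher on soft hydrogels in 4 of these 5 comparisons, with 3 or 4 of 5 genes, and not in serum + LIF at 48 h. Fibroblast markers were called lower on soft hydrogels in all 5, with 1 or 2 of 5 genes (26.4 to 38.6 against 52.9 to 60.4 CPM in sum at 24 h), and trophoblast markers in the same 4 comparisons, with 1 to 3 of 4 genes. Their part in the results above was not tested.

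Against plastic, at 48 h in serum + LIF, 8 of the 18 genes of synthesis were called higher on soft and 3 on stiff hydrogels, and none of the 28 was called lower. On soft hydrogels 10 genes (35.7%) were called higher, where 5.29% of all genes were called higher and 6.47% lower. On stiff hydrogels 5 genes (17.9%) were called higher, where 1.95% of all genes were called higher and 3.59% lower. The 2 comparisons share their plastic libraries. The median log2 fold change of the 28 genes was 0.181 on soft and 0.141 on stiff hydrogels, beside -8.52e-05 and 0.000753 over all genes tested. The 10 genes were Hmgcs1, Pmvk and Fdps of the mevalonate arm, Fdft1, the lanosterol-to-cholesterol genes Cyp51, Msmo1, Nsdhl and Dhcr7, the sensor Insig1 and the exporter Abca1. On stiff hydrogels they were Hmgcs1, Fdps, Fdft1, Insig1 and Abca1.

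Fdft1, squalene synthase, the enzyme that commits isoprenoids to sterols, changed most of the called genes. It stood at 42.3, 41.7 and 43.4 CPM on plastic, at 65.5, 64.8 and 60.7 CPM on soft and at 56.2, 55.8 and 55 CPM on stiff hydrogels. The 3 substrates did not overlap, with plastic lowest and soft highest. The log2 fold change was 0.58 ± 0.063 on soft (adjusted p = 4.64e-10) and 0.39 ± 0.063 on stiff hydrogels (adjusted p = 1.65e-05). Insig1, which retains SCAP in the endoplasmic reticulum, stood at 32.2, 27.8 and 31.1 CPM on plastic, 44.5, 45.3 and 38.3 CPM on soft and 38, 38.4 and 37.5 CPM on stiff hydrogels. All hydrogel libraries lay above all plastic libraries, by 0.49 ± 0.096 on soft (adjusted p = 0.000187) and 0.32 ± 0.096 on stiff (adjusted p = 0.037). Fdps, farnesyl diphosphate synthase, stood at 43.4, 49.4 and 44.5 CPM on plastic, 56.7, 65.2 and 63.2 CPM on soft and 55.7, 59 and 59.1 CPM on stiff hydrogels. It too had no overlap with plastic, with log2 fold changes of 0.43 ± 0.084 and 0.34 ± 0.084.

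Msmo1 rose to 35.2, 35.1 and 34.7 CPM on soft hydrogels from 27.7, 27.8 and 25.8 CPM on plastic (log2 0.37 ± 0.077), and on stiff hydrogels it held 34.4, 31.3 and 29.5 CPM without a call. Pmvk, phosphomevalonate kinase, rose to 34.3, 29.1 and 27 CPM on soft from 24.1, 24.8 and 22.7 CPM on plastic (log2 0.34 ± 0.091), with 25, 26.9 and 24.1 CPM on stiff, which overlapped with plastic. Abca1 stood at 38, 34.7 and 39.6 CPM on plastic, at 50.1, 46 and 48.3 CPM on soft and at 46.9, 49.2 and 47.1 CPM on stiff hydrogels. Its log2 fold changes, 0.36 ± 0.077 and 0.35 ± 0.077, were nearly equal on the 2 hydrogels, and no hydrogel library overlapped with plastic. The others called on soft but not on stiff hydrogels (Cyp51, Nsdhl, Dhcr7) had log2 fold changes of 0.29, 0.31 and 0.28, and soft and stiff were not called different for them.

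The plastic libraries all lay in set 1 and the soft libraries in set 3, so substrate and set cannot be told apart in the soft comparison. The stiff comparison had 1 library in the plastic set. A term for the set had to be spread over 45 possible assignments because the columns of the count table carried no library identifiers. With it, 0 to 3 members were called on soft and 1 or 2 on stiff hydrogels, beside 126 to 445 and 225 to 431 of all genes. Fdft1 was called in 43 of the 45 on soft and in all 45 on stiff. Leaving out single libraries gave 8 to 11 called members on soft and 3 or 4 on stiff hydrogels. The count on stiff fell to 3 without plastic library 1 or 2 or without stiff library 1 or 3, and Insig1 lost its call there in each of the 6 fits. The summed fibroblast markers were 71.7 to 83.1 CPM on plastic, 35 to 42.5 CPM on stiff and 27.7 to 31.9 CPM on soft hydrogels. Of the 5, 3 were called lower and 1 higher on each hydrogel. Called higher than on plastic were 4 of 5 pluripotency, 2 of 6 primitive endoderm and 2 of 5 ERK target genes on soft hydrogels, and 1, 3 and 2 on stiff, while 1 of 4 trophoblast genes on soft and 1 primitive endoderm gene on stiff were called lower. The part of these markers in the result was not tested.

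**Figure D2:**
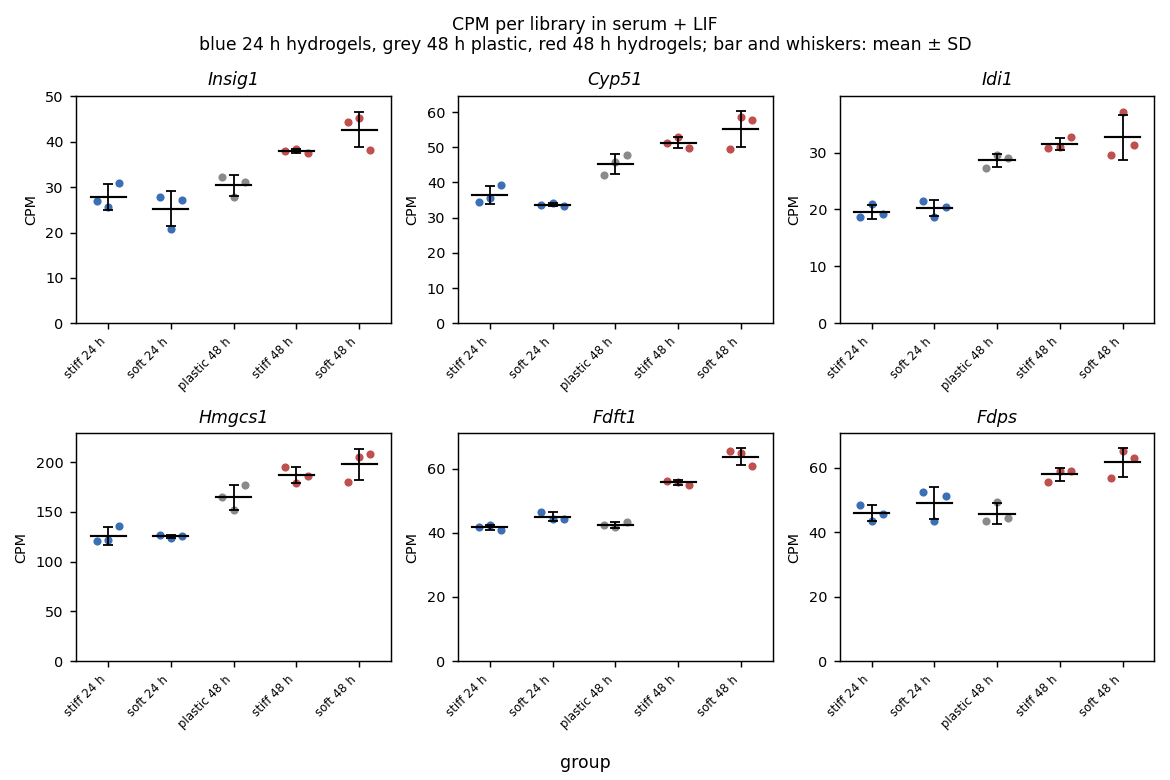
CPM (vertical axis, from 0) of 6 genes in each library in serum + LIF, by substrate and time (horizontal axis), with the group mean and SD as bar and whiskers. The group means of Insig1, Cyp51, Idi1 and Hmgcs1 are lowest on hydrogels at 24 h (blue), higher on plastic at 48 h (grey) and highest on hydrogels at 48 h (red), with overlap of single blue and grey libraries for Insig1, whereas the means of Fdft1 and Fdps on plastic lie near the 24 h level.

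Hydrogels were also sampled at 2 times in serum + LIF, and the comparison of 48 h with 24 h was added after the data had been seen. Many genes of synthesis were higher at 48 h on both hydrogels. On soft hydrogels 13 genes (46.4%) were called higher and 2 (7.14%) lower, beside 12.9% and 11.4% of all genes. On stiff hydrogels 12 genes (42.9%) were called higher and 1 (3.57%) lower, beside 12.6% and 13% of all genes. The median log2 fold change of the 28 genes was 0.247 on soft and 0.182 on stiff, beside -0.0277 and -0.015 over all genes. All 3 genes from squalene to lanosterol (Fdft1, Sqle, Lss) were called higher on both.

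Insig1 rose from 27.9, 20.8 and 27.2 to 44.5, 45.3 and 38.3 CPM on soft hydrogels (log2 0.76 ± 0.099, adjusted p = 5.94e-08). On stiff hydrogels it rose from 26.9, 25.6 and 31 to 38, 38.4 and 37.5 CPM (log2 0.44 ± 0.095, adjusted p = 0.000281). The times did not overlap on either hydrogel. Hmgcs1 rose from 127, 123 and 126 to 180, 205 and 208 CPM on soft (log2 0.66 ± 0.055) and from 120, 121 and 136 to 195, 179 and 186 CPM on stiff hydrogels (log2 0.57 ± 0.054). Cyp51, lanosterol demethylase, rose from 33.6, 34.2 and 33.4 to 49.4, 58.5 and 57.7 CPM on soft (log2 0.71 ± 0.073) and from 34.4, 35.7 and 39.3 to 51.3, 52.9 and 49.9 CPM on stiff (log2 0.49 ± 0.07). In both genes every 48 h library lay above every 24 h library. Idi1, which interconverts the isoprene units, rose from 21.5, 18.7 and 20.4 to 29.6, 37.2 and 31.3 CPM on soft (log2 0.70 ± 0.083) and from 18.6, 21 and 19.2 to 30.7, 31 and 32.7 CPM on stiff (log2 0.69 ± 0.08). Dhcr7, which makes cholesterol from its last precursor, rose from 22.4, 24.9 and 20.1 to 31.4, 34.2 and 39.5 CPM on soft (log2 0.64 ± 0.091) and from 21.9, 24.1 and 21.2 to 33.3, 34.1 and 34.9 CPM on stiff (log2 0.61 ± 0.087). Their times did not overlap either, and the increase in Idi1 was of nearly the same size on both hydrogels. Fdft1 rose by 0.50 ± 0.063 on soft and 0.42 ± 0.062 on stiff, again without overlap.

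The genes called lower at 48 h were a kinase and the decarboxylase of the mevalonate arm. Mvk, mevalonate kinase, fell by 0.21 on soft, from 35.8, 35.3 and 32.7 to 31.2, 31 and 27.3 CPM, and by 0.27 on stiff hydrogels, from 34.6, 34.5 and 32.1 to 25.7, 30.6 and 27.4 CPM. Mvd fell by 0.30 on soft, from 26.4, 28.4 and 30.9 to 22.8, 23.6 and 23.7 CPM, and had no call on stiff. The call of Mvk on soft was lost without the filter, with only the 2 groups compared and in 5 of the 6 fits that left out a library, and that of Mvd without library 3 on soft hydrogels at 24 h. The regulators Srebf1, Srebf2, Scap and Insig2 were not called between the times on either hydrogel. Time and library set cannot be told apart on soft hydrogels, and on stiff hydrogels 1 of the 3 later libraries lay in the set of the earlier ones. With the set term, 4 to 8 members were called on soft and 8 to 10 on stiff hydrogels, beside 345 to 813 and 2219 to 2431 of all genes. Mvk and Mvd on soft were then called in 0 of the 45 assignments, and Mvk on stiff in 17. Hmgcs1 and Cyp51 were called in all 45 assignments on both, and Idi1, Fdft1, Sqle, Dhcr7 and Insig1 in all 45 on stiff. On soft hydrogels Idi1 was called in 38, Fdft1 in 37, Insig1 in 32, Dhcr7 in 21, Sqle in 10, Lss in 9 and Fdps in 0. Pluripotency markers summed to 1700 to 1740 CPM at 24 h and 1900 to 2000 CPM at 48 h on stiff hydrogels, with 3 of 5 called higher. Fibroblast markers there summed to 52.9 to 60.4 and 35 to 42.5 CPM, with 1 of 5 called higher and 2 lower. On soft hydrogels both sums overlapped between the times. Pluripotency markers held 1840 to 2130 and 2010 to 2110 CPM (2 called higher and 1 lower), and fibroblast markers 26.4 to 38.6 and 27.7 to 31.9 CPM (1 called higher and 1 lower). The part of these markers was not tested.

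With PD03, between 14 and 20 of the 28 genes were called in each comparison. Of the 18 genes of synthesis, 12 and 9 were called lower on soft hydrogels and 7 and 8 on stiff, without and with LIF, while between 1 and 3 were called higher in each comparison. Of the 5 genes of transport and turnover, 3 or 4 were called higher and none lower. On soft hydrogels without LIF, 6 genes (21.4%) were called higher and 14 (50%) lower, beside 29% and 28.5% of all genes. With LIF on soft hydrogels the counts were 6 (21.4%) and 11 (39.3%), beside 27.8% and 26.6%. On stiff hydrogels they were 6 (21.4%) and 8 (28.6%) without LIF, beside 28.4% and 27.4%, and 6 (21.4%) and 9 (32.1%) with LIF, beside 28.3% and 27.8%. The shares called higher lay below those of all genes in each comparison, and the shares called lower lay above them on soft hydrogels and within 5 percentage points of them on stiff. The median log2 fold change of the 28 genes was -0.189 and -0.11 on soft and -0.0468 and -0.073 on stiff hydrogels, without and with LIF, beside -0.0104 to 0.00873 over all genes.

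Called lower in all 4 comparisons were 6 genes: Hmgcs1 and Idi1 of the mevalonate arm, Lss, Cyp51 and Dhcr7 of the sterol ring, and the carrier Scap. Called higher in all 4 were 3 genes of transport and turnover, Npc1, Abca1 and Mylip. Of all genes tested, 19.9% were called lower and 21.5% higher in all 4. A further 14 members were called in some of the comparisons, and 5 (Fdps, Ebp, Insig2, Srebf2 and Npc1l1) in none. For the same 6 and 3 genes all 15 hydrogel libraries with PD03 lay below or above all 12 at 48 h without it, as did 14.8% of all genes below and 17% above. The 9 genes kept their call in all 4 comparisons under every other fit, with each library left out in turn and under each assignment of the set term. Without LIF on stiff and with LIF on soft hydrogels, treated and untreated libraries came from a single library set.

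Idi1 changed most of the genes that were lower. On soft hydrogels it stood at 31, 31.1 and 33.1 CPM in serum, and the 6 libraries in serum + PD03 ran from 15.1 through a median of 17.6 to 19 CPM. With LIF it stood at 29.6, 37.2 and 31.3 CPM without and 16.7, 16 and 17.6 CPM with PD03. On stiff hydrogels it went from 31.1, 32 and 32.1 to 17.6, 17.2 and 16.7 CPM without LIF, and from 30.7, 31 and 32.7 to 15.2, 15.1 and 13.6 CPM with LIF. Every treated library lay far below every untreated hydrogel library at 48 h. The untreated 24 h libraries held 18.6 to 21.5 CPM and overlapped with the 13.6 to 19 CPM with PD03. The log2 fold change was -0.87 ± 0.068 and -0.96 ± 0.081 on soft and -0.88 ± 0.081 and -1.11 ± 0.082 on stiff hydrogels, with adjusted p-values of 6.03e-16, 1.08e-14, 1.67e-13 and 8.98e-17.

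Dhcr7 stood at 37.5, 33.8 and 32.3 CPM on soft hydrogels in serum and from 17.9 through a median of 19.7 to 22.6 CPM with PD03, and with LIF at 31.4, 34.2 and 39.5 CPM without and 17.8, 19.9 and 19.8 CPM with PD03. On stiff hydrogels it went from 35.2, 37.4 and 31.7 to 22.1, 22.6 and 20.5 CPM without LIF and from 33.3, 34.1 and 34.9 to 20.7, 17.9 and 19.8 CPM with LIF. Treated and untreated hydrogel libraries at 48 h did not overlap, with log2 fold changes of -0.80 ± 0.075 and -0.87 ± 0.089 on soft and -0.68 ± 0.088 and -0.81 ± 0.088 on stiff. The untreated 24 h libraries, at 20.1 to 24.9 CPM, did overlap with the treated ones. Cyp51 stood at 59.6, 57.4 and 59.2 CPM on soft in serum and from 33.4 through a median of 35 to 40 CPM with PD03, and with LIF at 49.4, 58.5 and 57.7 CPM without and 32.9, 30.5 and 27.6 CPM with PD03. On stiff hydrogels it went from 52.4, 57.9 and 54.3 to 35.9, 39.4 and 35.6 CPM without LIF and from 51.3, 52.9 and 49.9 to 34.5, 32 and 35 CPM with LIF. Again no treated library reached the untreated range at 48 h, and the log2 fold changes were -0.73 ± 0.059, -0.86 ± 0.071, -0.56 ± 0.07 and -0.60 ± 0.07 in the same order. The untreated 24 h libraries held 33.4 to 39.3 CPM, within the range of the treated ones.

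Lss, which closes the rings of squalene epoxide to give lanosterol, stood at 49, 48.9 and 50.9 CPM on soft hydrogels in serum and from 28 through a median of 30.6 to 34.8 CPM with PD03, and with LIF at 47.3, 44.7 and 50.6 CPM without and 27.2, 29.4 and 28.9 CPM with PD03. On stiff hydrogels it went from 45.6, 45.8 and 51.2 to 32.3, 29.4 and 31.9 CPM without LIF and from 45.7, 50.7 and 47.4 to 30.6, 26.7 and 29.6 CPM with LIF. All treated libraries were lower, with log2 fold changes of -0.66 ± 0.059 and -0.74 ± 0.071 on soft and -0.61 ± 0.071 and -0.73 ± 0.071 on stiff. Hmgcs1 and Scap moved less, by log2 fold changes of -0.43 to -0.26 and of -0.34 to -0.21. Their 15 treated libraries still lay below the 12 untreated hydrogel libraries at 48 h. In Hmgcs1, whose window alone matched the searched form of the sterol regulatory element, treated libraries held 140 to 170 CPM and those 12 held 179 to 208 CPM. Its untreated 24 h libraries lay lower still, at 120 to 136 CPM, and its plastic libraries, at 152 to 177 CPM, overlapped with the treated ones.

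**Figure D3:**
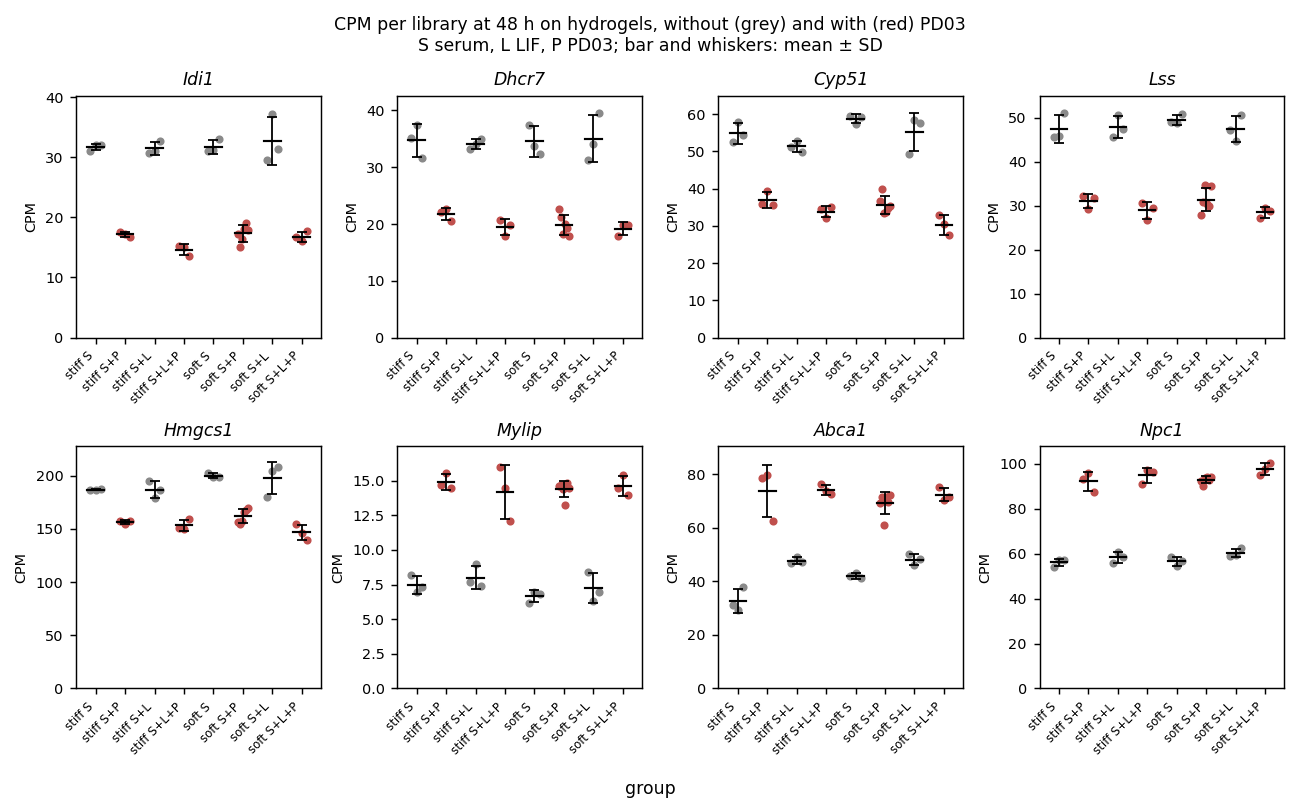
CPM (vertical axes, from 0) of 8 genes in each hydrogel library at 48 h, without PD03 in grey and with it in red, by substrate and medium (horizontal axis), with the group mean and SD as bar and whiskers. For Idi1, Dhcr7, Cyp51, Lss and Hmgcs1 all red points lie below all grey points, and for Mylip, Abca1 and Npc1 above them.

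Mylip had the largest increase on soft hydrogels. It stood there at 6.17, 6.96 and 6.83 CPM in serum and from 13.2 through a median of 14.6 to 14.9 CPM with PD03, and with LIF at 8.4, 6.29 and 7 CPM without and 14.5, 15.4 and 14 CPM with PD03. On stiff hydrogels it went from 8.19, 6.93 and 7.31 to 14.7, 15.6 and 14.4 CPM without LIF and from 7.68, 8.97 and 7.37 to 16, 14.4 and 12.1 CPM with LIF. Treated and untreated libraries were fully apart. The log2 fold change was 1.11 ± 0.10 (adjusted p = 2.32e-13) and 1.02 ± 0.12 (adjusted p = 1.98e-10) on soft and 0.98 ± 0.12 (adjusted p = 2.64e-10) and 0.83 ± 0.12 (adjusted p = 2.45e-08) on stiff hydrogels. Npc1, which moves cholesterol out of lysosomes, rose by nearly the same amount each time (log2 0.71, 0.69, 0.72 and 0.70), with an SE of 0.044 to 0.05. Stard4, a carrier of sterol between membranes, was called higher in 3 of the 4 comparisons (0.19, 0.27 and 0.36) and had 0.12 ± 0.07 in that on soft hydrogels without LIF. Its call on soft hydrogels with LIF was lost without the filter, with only the 2 groups compared, with DESeq2 and in 5 of 6 fits that left out a library.

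Within the synthesis route the genes did not move as one. Mvk was called higher in 3 comparisons (0.25, 0.27 and 0.19), as was Hsd17b7, the sterol ketone reductase (0.23, 0.41 and 0.28). Fdft1 was called higher in both comparisons without LIF (0.13 and 0.23). Acat2, which joins acetyl-CoA units, was called lower in 3 comparisons, and Sc5d, a sterol desaturase, in 3 as well, with log2 fold changes of -0.30 to -0.20 and of -0.39 to -0.21. Pmvk, Msmo1 and Insig1 were called lower in both comparisons on soft hydrogels and in neither on stiff, and Sqle, Nsdhl, Mvd and Tm7sf2 in 1 or 2 comparisons. No difference between hydrogels was called for these genes. The 14 members called in some comparisons had 30 calls between them, of which 19 were lost in at least 1 fit that left out a library.

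Among the regulators, Srebf2 had log2 fold changes of 0.0068, 0.07, -0.01 and 0.03 with an SE of 0.041 to 0.048, while Scap was lower in every comparison. Srebf1, the SREBP gene tied more to fatty acids, was called higher once (0.15, on stiff hydrogels without LIF). Insig2 was called in no comparison. Beside these values, the 5 ERK target genes summed to 28.4 to 38.2 CPM with and 360 to 451 CPM without PD03, and all 5 were called lower in each comparison. Pluripotency markers summed to 2490 to 3020 CPM with and 1660 to 2130 CPM without PD03, trophoblast markers to 38 to 93.7 and 11.6 to 30.1 CPM, primitive endoderm markers to 78.9 to 136 and 42 to 63.7 CPM, and fibroblast markers to 33.6 to 96.3 and 24.4 to 83.1 CPM. The sums do not describe each gene. Of the 6 primitive endoderm genes, 1 or 2 were called higher and 2 or 3 lower in each comparison. Of the 5 fibroblast genes, 2 or 3 were called higher and 1 lower. Of the 5 pluripotency genes, 2 to 4 were called higher, as were 3 or 4 of the 4 trophoblast genes, and none of these lower. The part of these cell states in the sterol genes was not tested.

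LIF moved 1 of the 28 genes in 1 of 4 comparisons. That gene was Abca1 on stiff hydrogels without PD03, a share of 3.57% against 1.41% of all genes, with 46.9, 49.2 and 47.1 CPM with LIF and 31, 29.3 and 37.9 CPM without. The libraries did not overlap, and the log2 fold change was 0.55 ± 0.078 (adjusted p = 6.47e-06). On soft hydrogels without PD03, where 0.0169% of all genes were called, no member was called. At an unadjusted p under 0.05 there were 2 members, beside 1345 of the 17702 genes. With PD03 no member was called on soft (0.107% of all genes) or on stiff hydrogels (0.514%). At an unadjusted p under 0.05 there were 5 members on soft and 1 on stiff, beside 1430 and 1533 of all genes. DESeq2 called 0 in each of these 3.

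Abca1 was called in comparisons of every kind, and its levels are given here for all groups. Its calls between soft and stiff in serum, for LIF on stiff and for the interaction of substrate and PD03 share the stiff libraries in serum. They are therefore not independent of each other. In libraries without PD03 it was lowest on stiff hydrogels in serum (31, 29.3 and 37.9 CPM) and on plastic (38, 34.7 and 39.6 CPM), groups that overlapped. Next stood stiff hydrogels at 24 h (38.7, 40.8 and 41.9 CPM), soft hydrogels in serum at 48 h (41.8, 43.3 and 41.1 CPM) and soft hydrogels at 24 h (47.6, 44 and 43.9 CPM), of which the first overlapped with plastic and with the second, while the last stood apart from the second. Stiff and soft hydrogels in serum + LIF at 48 h (46.9, 49.2 and 47.1, and 50.1, 46 and 48.3 CPM) were highest and overlapped. With PD03 Abca1 stood at 78.5, 79.9 and 62.4 CPM on stiff hydrogels without LIF and 76.2, 73.7 and 72.5 CPM with it. On soft hydrogels it ran from 61.1 through a median of 70.5 to 72.3 CPM without LIF and stood at 75.1, 70.5 and 71.5 CPM with it. The 4 treated groups lay above all untreated libraries and overlapped with each other, except that the 6 soft libraries without LIF lay below the 3 stiff ones with LIF.

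**Figure D4:**
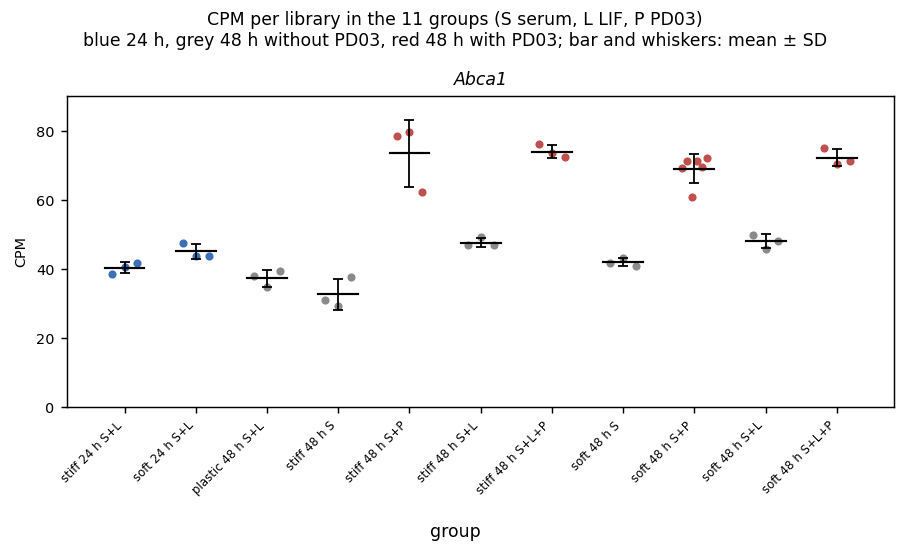
CPM of Abca1 (vertical axis, from 0) in each library of the 11 groups (horizontal axis), with 24 h in blue, 48 h without PD03 in grey and 48 h with PD03 in red, and the group mean and SD as bar and whiskers. The untreated stiff group in serum holds the lowest library, at 29.3 CPM, and every red point lies above every other point.

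The PD03 effect on Abca1 was 0.72 ± 0.064 on soft and 1.18 ± 0.075 on stiff hydrogels without LIF, with adjusted p-values of 6.44e-14 and 3.87e-19. With LIF it was 0.59 ± 0.073 and 0.64 ± 0.072. The difference between hydrogels (soft minus stiff) without LIF was itself called, at -0.46 ± 0.098 on the log2 scale (adjusted p = 0.00912). It was the sole member called in that interaction (3.57% against 0.797% of all genes). The call was lost without treated stiff library 2 (-0.401, adjusted p = 0.0552) and kept in the 14 other fits that left out a library. With LIF the difference was -0.05 ± 0.10, and no member was called there, where 1.07% of all genes were, nor with DESeq2. At an unadjusted p under 0.05 there was 1 member, beside 1689 of all genes. The LIF effect without PD03 differed between hydrogels by -0.35 ± 0.11 for Abca1 (adjusted p = 0.21). Again no member was called (0.0847% of all genes), and DESeq2 called 0, with no adjusted p for 26 of the 28. At an unadjusted p under 0.05 in edgeR there were 3 members, beside 1719 of all genes.

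Other genes of sterol handling and of fatty acid synthesis were set beside the 28. Of 15 other sterol genes, PD03 raised 8 and lowered 3 on soft hydrogels without LIF, 6 and 2 with LIF, and 8 and 2 and 7 and 2 on stiff. Of all genes, 27.8% to 29% were called higher and 26.6% to 28.5% lower in these comparisons. Npc2, the soluble partner of Npc1, was higher by 0.93 to 1.06, and Scarb1, a receptor of high-density lipoprotein, by 0.73, 0.81, 0.89 and 0.76. Gramd1a, a carrier of plasma membrane cholesterol, was higher by 0.94 to 1.31. Soat1, which esterifies cholesterol for storage, was lower by log2 fold changes of -0.71, -0.58, -0.68 and -0.26. These 4 genes were named for the size of their change, and 3 rose and 1 fell in each comparison. Abcg1, another sterol exporter, did not rise as Abca1 did. On stiff hydrogels it went from 7.6, 6.3 and 6.2 to 6.0, 5.7 and 5.5 CPM without LIF and from 6.9, 7.1 and 7.0 to 5.4, 6.4 and 5.8 CPM with it. On soft hydrogels it held 5.4 to 7.6 CPM without and 4.5 to 7.5 CPM with PD03. With LIF these ranges were 6.4 to 7.0 and 4.4 to 6.8 CPM. The activity of the LXR factors was not tested.

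Of 12 genes of fatty acid synthesis, PD03 raised 6 and lowered 4 on soft hydrogels without LIF, 5 and 5 with LIF, and 5 and 4 and 7 and 4 on stiff. The shares of all genes were again 27.8% to 29% higher and 26.6% to 28.5% lower. The 4 genes that follow were named for the size of their change. Acss2, which makes acetyl-CoA from acetate, was higher by 1.496 to 1.67, Scd1, a stearoyl-CoA desaturase, by 1.28, 1.27, 1.37 and 1.49, and Me1, which makes NADPH, by 0.97, 1.14, 0.94 and 1.14. Mid1ip1, which activates acetyl-CoA carboxylase, was lower by log2 fold changes of -2.67, -2.48, -2.62 and -2.72. Against plastic, 2 sterol genes were called higher and 1 lower on soft and 1 higher on stiff hydrogels, and 4 and 1 fatty acid genes higher. Of all genes, 5.29% were called higher and 6.47% lower on soft, and 1.95% and 3.59% on stiff. Abcg1 was higher than on plastic by 0.76 ± 0.17 on soft and 0.81 ± 0.17 on stiff hydrogels. From 24 h to 48 h, 3 sterol genes rose and 2 fell on each hydrogel, and 6 fatty acid genes rose on soft and 3 on stiff. The shares of all genes were 12.9% higher and 11.4% lower on soft, and 12.6% and 13% on stiff. Between soft and stiff at 24 h Abcg1 was higher on soft by 0.68 ± 0.17 and Soat1 lower, at -0.32 ± 0.073. Soat1 was also lower on soft hydrogels in serum + LIF + PD03, at -0.35 ± 0.076. In serum Fasn and Acaca, which build fatty acid chains, were lower on soft hydrogels, at -0.22 ± 0.047 and -0.19 ± 0.057, and the PD03 effect on Fasn without LIF differed between hydrogels by 0.24 ± 0.062. With LIF on stiff hydrogels the desaturase Fads2 was lower, at -0.30 ± 0.08. No other gene of these lists was called in the comparisons of soft with stiff, of LIF or of interactions.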

How the data were processed

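Total RNA of 36 libraries was sequenced after library preparation with a NuGen kit, per the labels. Per the labels and the study's methods, the authors aligned reads to mouse build GRCm38 (mm10) with STAR 2.5.2a and counted them per Ensembl gene with htseq-count. The authors deposited raw counts, whole numbers without normalisation. Strand setting and the handling of reads with several matches are not given in the sources used here. Columns of the table carried group names but no replicate number, so a library number is only a name.

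The counts were tested with edgeR 4.0.16 in R 4.3.3. filterByExpr by group kept 17702 genes, which held 99.92% of counts, and 13380 genes had no count. Libraries were scaled by TMM, and contrasts of 1 quasi-likelihood model over all 36 libraries were tested with Benjamini-Hochberg adjustment at 0.05. Totals of 10405696 to 26635239 limit the precision of low genes, Npc1l1 most. Over the 45 pairs of libraries within groups, the chi-square of their counts per degree of freedom was 2.13 to 11.7, so none was a duplicate. Symbols were found for 49326 identifiers in GENCODE M21. The alternatives were size factors of the RLE kind, no filter, only the groups compared, DESeq2 1.42.0, each library left out and a term for the library set. The genes and lists were chosen with earlier results of these data known. Genes described in full were up to 6 called members per kind of comparison, by size of change. The edgeR test was tried on simulated counts for soft against stiff hydrogels at 24 h in serum + LIF. It recovered 81% of log2 changes of 0.5 and 100% of log2 changes of 1. The changed genes were drawn from those above a floor in mean CPM, which Tm7sf2 and Npc1l1 did not reach, so the shares do not apply to such low genes. Smaller changes, the other comparisons and the alternative fits were not tried on simulated counts.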

Additional observations from a re-analysis of the deposited data

Results flagged for a closer look

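The group on soft hydrogels in serum + PD03 was the sole one with more than 3 libraries, and the gap of its highest or lowest library to the next was set against Dixon's 95% limit for each of the 28 genes. About 1 in 20 such tests passes by chance. Msmo1 passed with a highest library of 34.96 CPM, beside a median of 31.1 CPM in the group. Abca1 passed with a lowest library of 61.1 CPM, beside a median of 70.5 CPM. Mylip passed with a lowest library of 13.23 CPM, beside a median of 14.6 CPM. The gap was 0.660, 0.734 and 0.742 of the group's range in turn. Each of these libraries stayed on the PD03 side of all untreated libraries for Abca1 and Mylip.

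The PD03 effect on Abca1 without LIF differed between soft and stiff hydrogels by -0.4618 on the log2 scale (soft minus stiff, edgeR, adjusted p = 0.00912). The untreated stiff libraries held 31, 29.3 and 37.9 CPM and the untreated soft ones 41.8, 43.3 and 41.1 CPM, whereas the treated libraries without LIF overlapped between hydrogels. In the fits that left out 1 library the difference ran from -0.573 to -0.401, with 1 of 15 losing the call, and over the 45 assignments of the set term it stayed called.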

How the results depend on the processing

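No paired analysis was possible because the columns of the count table carried no replicate number. The fits with RLE size factors and DESeq2 changed no count of called members by more than 1.5 times. For soft against stiff hydrogels in serum, 1 member was called without the filter, 1 with only the groups compared, and 0 to 1 with the set term, instead of 2. With the set term, up to 1 member was called in serum + LIF + PD03 instead of 0, 0 to 3 for soft against plastic instead of 10, 1 to 2 for stiff against plastic instead of 5, 4 to 8 for 48 h against 24 h on soft hydrogels instead of 15, and as few as 8 on stiff instead of 13. The set coincides with substrate or time in these comparisons, and the count over all genes fell as well (soft against plastic, 126 to 445 genes). Signs turned under some set assignments for Nsdhl on soft against plastic (-0.1569) and from 24 h to 48 h on soft hydrogels (-0.2035), for Mvk (0.1148) and for Mvd (0.06416) over the same time; the cause was not tested.

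Leaving out single libraries gave these ranges of called members. Soft against stiff had 0 to 1 at 24 h, 0 to 1 in serum + LIF, 1 to 2 in serum and 0 in both PD03 media. Against plastic there were 8 to 11 on soft and 3 to 4 on stiff hydrogels. PD03 effects had 17 to 20 and 13 to 17 on soft and 12 to 15 and 12 to 14 on stiff. LIF effects had 1 for stiff without PD03 and 0 elsewhere. The interaction of substrate and PD03 without LIF had 0 to 1 and the others 0. Times had 13 to 16 on soft and 11 to 13 on stiff. Of 1437 refitted fold changes of called members, 1257 kept sign and call, 176 lost the call and 4 turned sign.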
